A study of Mus musculus with 18 samples.

Results

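Healthy scaffold was compared with healthy lung: an implanted biomaterial that host cells had entered, against an organ with its own resident cells, in mice without a tumour. The 6 libraries were chosen by their labels, 3 of scaffold and 3 of lung, out of 18 in the series, and they held 5552 of the 19761 cells kept in all libraries. All came from female BALB/cJ mice that received no tumour cells, aged 9, 10 and 11 weeks at days 7, 14 and 21, with 1 Drop-seq library per tissue and day. In Drop-seq each cell is caught in a droplet with a barcoded bead, and every captured transcript carries a unique molecular identifier (UMI). For 1 comparison below, 6 further libraries of scaffold and lung came from mice of the same strain and ages that carried 2000000 injected 4T1-tdTomato-luc2 cells, a labelled mouse mammary carcinoma line, in the mammary fat pad. Neither the number of animals behind a library is stated, nor whether a scaffold and a lung of 1 day came from the same animal, so the p-values measure the spread between these libraries, which may be technical. Because the 3 libraries of a tissue are of 3 different days, that spread also contains any change with time.

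An implanted material is met by a foreign-body response: blood monocytes enter, become macrophages, and some fuse into giant cells on the surface, while fibroblasts lay down matrix around it. Macrophages in lipid-rich or damaged tissue are known for a shared set of genes with roles in lipid uptake, lysosomal digestion and matrix cleavage. The lung holds alveolar macrophages, which clear surfactant from the air spaces, together with epithelium, a dense capillary bed, and lymphocytes of the blood and the tissue.

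The kept cells numbered 747, 1634 and 1279 in scaffold and 587, 1070 and 235 in lung at days 7, 14 and 21, the order used for all values below. Their median depth was 1242, 892.5 and 1402 UMIs per cell in scaffold and 1016, 731 and 418 UMIs in lung. Merging barcodes alike in their first 11 bases left 578, 1631 and 1274 cells in scaffold and 474, 1070 and 234 in lung. The loss was thus largest at day 7, where alveolar macrophage-like cells of lung went from 114 to 74. Whether such barcodes belong to 1 cell was not tested, and gene levels were not compared with them merged. The lung library of day 21 stood apart. Same-day scaffold and lung libraries had 172, 30 and 733 cell barcodes in common, and such a barcode was assigned to the library holding 5-fold or more UMIs than any other of that day, or dropped. That step removed 81.4% of the UMIs of the day 21 lung library and between 0.586% and 8.6% of those of the other 5, and no barcode remained in both libraries of a pair. The day 21 lung library was left with 113896 UMIs, against 879550 to 3076663 in the others. The number of genes called, and list counts where they moved, are given also without day 21 or with shared barcodes kept in every library.

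Clusters of cells were named from marker genes, and the names end in "-like" because they rest on RNA alone. Phagocytes were the most numerous named class in every scaffold library, and the named phagocytes were of another kind than those of lung. An unnamed cluster with Serpinb10, Plac8, Ly6c2 and Treml4 among its leading genes is in neither kind. It held 50, 126 and 30 lung cells and 13, 44 and 26 scaffold cells, and whether they are monocytes was not tested. Mononuclear phagocyte-like cells made up 58.0%, 64.9% and 50.8% of scaffold cells and 1.36%, 1.5% and 4.26% of lung cells. Their clusters did not share 1 set of markers. Csf1r and C1qa were raised in the cluster led by Ccl8, and Spp1 in those led by Prdx1 and by Gpnmb. The cluster led by Cxcl3 had Cd14, Ccr2 and F13a1 raised. That led by Prdx1 was named from 3 markers, Lgals3, Lyz2 and Spp1, at a median of 609 UMIs per cell. Alveolar macrophage-like cells, with Ear1, Fabp1 and Chi3l3, made up 19.4%, 13.2% and 37.9% of lung cells. In scaffold they numbered 0, 4 and 0 cells, and 0 cells allow a share of up to 0.402% at day 7 and 0.235% at day 21. These shares depend on the barcode assignment and on the clustering, whose parts were not told apart. With shared barcodes kept in every library and cells clustered anew, mononuclear phagocyte-like cells made up 47.0%, 53.8% and 30.3% of scaffold cells. In lung they made up 10.4%, 2.25% and 13.7%. Cells in clusters without a name rose from 19.4%, 8.81% and 9.46% to 33.1%, 30.5% and 46.7% of scaffold. In lung they went from 10.6%, 13.2% and 24.3% to 23.0%, 17.2% and 70.4%. The alveolar macrophage-like share of lung was then 13.1%, 12.3% and 6.8%. Because the genes that define these 2 classes differ between the tissues, their sizes were not tested apart. Taken as 1 class, phagocytes made up 58.0% ± 7.18 (SD, n = 3) of scaffold and 25.9% ± 14.4 of lung cells, a log2 ratio of 1.31 ± 0.96 (SE) that did not pass (adjusted p = 0.313 over 10 classes, edgeR).

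B cell-like cells made up 1.61%, 0.673% and 0.469% of scaffold cells and 24.4%, 27.1% and 8.09% of lung cells. Every lung library was above every scaffold library, with a log2 ratio of -4.44 ± 1.09 (adjusted p = 0.00295, edgeR). Endothelial-like cells, from the lining of blood vessels, made up 0.134%, 0% and 0.235% of scaffold cells and 4.43%, 10.3% and 9.79% of lung cells (log2 -6.13 ± 1.27, adjusted p = 0.00104, edgeR). That cluster was led in part by Sftpc and Scgb1a1 of lung epithelium, so it is not endothelium alone. With finer clusters 0, 60 and 18 lung cells were endothelial-like and 27, 54 and 6 epithelial-like. With a minimum of 400 genes per cell they were 0, 34 and 6 against 11, 12 and 0. The B cell-like and endothelial-like calls were both lost without day 7 (adjusted p = 0.0996 and 0.0728, edgeR) and without day 21 (0.0843 and 0.105). Both were also lost with a minimum of 400 genes per cell (0.126 and 0.222). The log2 ratios in these settings lay between -7.07 and -4.39. With shared barcodes kept the B cell-like value was -3.50 (adjusted p = 0.056, edgeR). The 2-sided exact permutation test of 3 against 3 libraries gave 0.1 for each, the smallest p it allows.

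T cell-like cells made up 1.87%, 1.65% and 4.14% of scaffold and 21.1%, 18.6% and 7.23% of lung cells, which did not pass (log2 -2.65 ± 1.05, adjusted p = 0.052, edgeR). The 2 tissues did not overlap in this share, and the value passed without day 21 (log2 -3.48, adjusted p = 0.0259). NK cell-like cells made up 4.02%, 3.67% and 3.91% of scaffold and 6.13%, 5.98% and 1.28% of lung cells, with a log2 ratio of -0.03 ± 1.02 (adjusted p = 0.976, edgeR). Dendritic cell-like cells made up 4.69%, 10.8% and 6.33% of scaffold and 1.02%, 1.5% and 5.11% of lung cells (log2 1.80 ± 1.03, adjusted p = 0.192, edgeR). With shared barcodes kept and cells clustered anew, no cluster was named dendritic cell-like. Neutrophil-like cells made up 8.57%, 1.41% and 16.8% of scaffold and 9.71%, 6.36% and 0.426% of lung cells, the last being 1 cell. Fibroblast-like cells made up 0.535%, 3.55% and 5.24% of scaffold and 1.53%, 1.21% and 1.28% of lung cells. Neither class passed (adjusted p = 0.885 and 0.584, edgeR). Scaffold neutrophil-like cells lay mostly in 1 cluster (261 of its 266 cells) and those of lung mostly in another (121 of 162 cells). An epithelial-like cluster of 52 cells with Krt8, Krt18 and Areg held scaffold cells of days 14 and 21 and no lung cell; its test passed (log2 6.80, adjusted p = 0.0212, edgeR), but the sign turned when clusters were made finer (-1.62) or shallow cells left out (-0.72), and lung epithelial genes sat in the endothelial-like cluster instead.

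**Figure D1:**
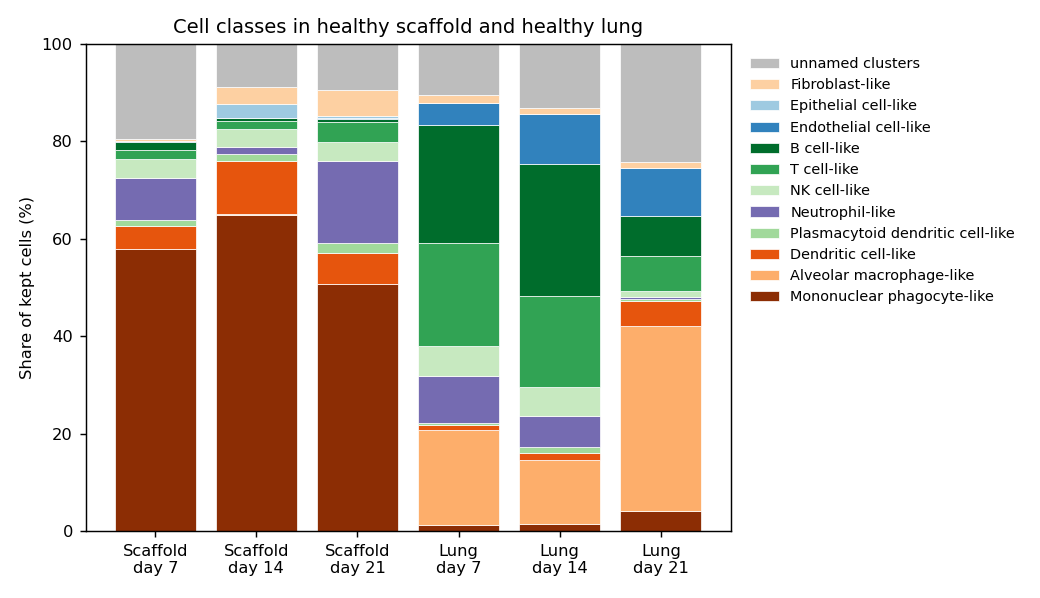
Share of kept cells (%, vertical axis) in each cell class for the 3 healthy scaffold and 3 healthy lung libraries; each bar is 1 library and grey marks clusters without a name. Mononuclear phagocyte-like cells fill 50.8% to 64.9% of the scaffold bars and 1.36% to 4.26% of the lung bars, where alveolar macrophage-like, B cell-like and T cell-like cells are seen.

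Gene levels were then compared on UMI counts summed over all kept cells of a library and given as CPM, the UMIs of a gene per 1000000 UMIs of that library. In such sums fewer cells of a type and less RNA per cell cannot be told apart. Of 9657 genes tested with edgeR and day as the pair, 1145 (11.9%) passed an adjusted p of 0.05, 557 (5.77%) higher and 588 (6.09%) lower in scaffold. The 3 scaffold and 3 lung values did not overlap for 2951 genes, or 30.6%. The number called was 2557 without day 21, 559 without day 7, 651 without day 14, 366 with shared barcodes kept and 590 with such barcodes left out of every library. Of 9863 genes tested without day 21, 1164 were higher and 1393 lower in scaffold. Of 9622 tested with shared barcodes kept, 169 were higher and 197 lower. List counts given below for these settings stand against those numbers and not against 5.77% and 6.09%. Among the genes described below, the calls of Ccl5, Ccl8, Ccr7, Cxcl13, Dcstamp, Gzma, H2-Ob, Lpl, Mmp12, Ocstamp, Ptn, Retnlg, Syngr1, Timp1, Tpi1 and Vegfa were lost with shared barcodes kept, each with its direction unchanged. Genes not tested with shared barcodes kept are not in this list. Of 109 named and called genes with a value in that setting, 107 moved closer to 0, 76 of them by more than 1.5 times. The median shift towards 0 was 0.81 on the log2 scale.

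Most genes of the giant-cell and lipid-associated macrophage list were higher in scaffold: 18 of 24 tested members were called higher and none lower, against 5.77% and 6.09% of all genes, with a median log2 fold change of 2.69 against -0.001 over all genes. Without day 21 the count was 21 of 24, and with shared barcodes kept it was 9. Summed over the list, the level was 30700, 41700 and 34720 CPM in scaffold and 5598, 5702 and 8025 CPM in lung. The start-site windows of 3 members are shown first, since they hold short letter patterns read by factors known in macrophages: AP-1 (TGANTCA), PU.1 (GAGGAAGT) and the MITF and TFE3 family (M-box, TCATGTG). The windows are the 250 bases before an annotated start in RefSeq (GRCm38.p6, plus strand), searched on both strands, with matches in capitals. The Mmp12 windows lie at chr9:7344147-7344396, with a PU.1 match, and at a second start, chr9:7347124-7347373, with an M-box and an AP-1 match. Those of Spp1 (chr5:104434861-104435110, PU.1) and Trem2 (chr17:48346151-48346400, AP-1) follow.
Mmp12, first start: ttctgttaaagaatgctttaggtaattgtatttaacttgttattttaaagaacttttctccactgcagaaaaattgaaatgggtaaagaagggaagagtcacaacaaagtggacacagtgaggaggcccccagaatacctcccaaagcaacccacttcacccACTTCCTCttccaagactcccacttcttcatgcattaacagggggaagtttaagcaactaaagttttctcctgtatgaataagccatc
Mmp12, second start: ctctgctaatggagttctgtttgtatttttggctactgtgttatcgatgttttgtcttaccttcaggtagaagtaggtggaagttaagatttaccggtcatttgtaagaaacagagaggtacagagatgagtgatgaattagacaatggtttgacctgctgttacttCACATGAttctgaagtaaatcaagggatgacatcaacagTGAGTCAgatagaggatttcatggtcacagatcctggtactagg
Spp1: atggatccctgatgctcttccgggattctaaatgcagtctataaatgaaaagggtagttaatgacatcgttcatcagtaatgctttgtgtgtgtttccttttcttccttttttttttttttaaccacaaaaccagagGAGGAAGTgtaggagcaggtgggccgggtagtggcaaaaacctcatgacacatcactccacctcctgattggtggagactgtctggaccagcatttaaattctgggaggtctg
Trem2: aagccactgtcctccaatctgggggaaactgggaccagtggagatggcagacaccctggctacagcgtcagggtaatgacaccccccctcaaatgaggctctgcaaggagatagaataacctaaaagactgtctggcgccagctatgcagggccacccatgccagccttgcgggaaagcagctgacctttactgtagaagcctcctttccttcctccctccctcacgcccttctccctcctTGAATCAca
Of the 18 called members 12 had a window in the table. AP-1 was matched for 3 of them (Trem2, Mmp12 and Itgax), the M-box for 2 (Acp5 and Mmp12) and PU.1 for 2 (Spp1 and Mmp12). Over all 32851 windows the shares with a match were 6.75%, 3.25% and 2.44%. A member counted as matched where any of its windows held the pattern, while these shares are of single windows. The counts and shares are therefore not on the same footing. A match is a description of these letters and not a measured binding site.

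Mmp12, the macrophage elastase (chr9:7344397-7360461), stood at 2126, 5587 and 3427 CPM in scaffold and at 15.9, 27.4 and 61.5 CPM in lung. The lowest scaffold value was far above the highest lung value, and the log2 fold change was 7.05 ± 0.51 (SE, 3 against 3 libraries, adjusted p = 2.67e-05, edgeR). Spp1, which encodes the secreted adhesive protein osteopontin (chr5:104435111-104441053), was at 3034, 3512 and 2299 CPM against 225, 235 and 711 CPM (log2 3.22 ± 0.48, adjusted p = 0.00109, edgeR). Trem2, a lipid-sensing receptor of macrophages (chr17:48346401-48352276), was at 469, 636 and 485 CPM against 11.4, 21.2 and 0 CPM (log2 5.38 ± 0.48, adjusted p = 5.15e-05, edgeR). These 3 genes did not overlap between tissues at any day. Gpnmb, a lysosomal glycoprotein (chr6:49036518-49058182), was the most even of those shown across the scaffold days, at 886, 915 and 972 CPM against 29.6, 25.6 and 52.7 CPM in lung (log2 4.90 ± 0.40, adjusted p = 3.66e-05, edgeR).

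Apoe, the main lipid carrier made by macrophages (chr7:19696244-19701310), reached 7184, 11010 and 13050 CPM in scaffold, against 629, 777 and 562 CPM in lung (log2 4.01 ± 0.40, adjusted p = 0.000108, edgeR). Lpl, lipoprotein lipase, was at 4601, 3685 and 3464 CPM against 832, 752 and 1247 CPM (log2 2.15 ± 0.36, adjusted p = 0.00212, edgeR), a call lost without day 7 (log2 1.98, adjusted p = 0.11). The fatty-acid receptor Cd36 showed 942, 768 and 622 CPM against 125, 229.5 and 211 CPM (log2 2.15 ± 0.38, adjusted p = 0.00264), also lost without day 7 (log2 1.75, adjusted p = 0.0921). Both genes were still above lung in every scaffold library.

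Other members of the list have known roles in cell fusion and bone resorption. Dcstamp, needed for the fusion of macrophages, had 24.6, 24.6 and 21.1 CPM in scaffold and no UMI in the 3 lung libraries, at least 16.4-fold higher when lung is set at 3 counts over its libraries (adjusted p = 0.00173, edgeR). With shared barcodes kept the log2 fold change of Dcstamp was 2.99 (adjusted p = 0.0637). Ocstamp, its partner in fusion, had 13.4, 13.2 and 6.83 CPM against no UMI, at least 7.57-fold higher (adjusted p = 0.00706, edgeR), and a log2 fold change of 3.68 with shared barcodes kept (adjusted p = 0.0951). Ctsk, the collagen-cleaving cathepsin of osteoclasts, was at 1224, 1056 and 828 CPM against 104, 89.2 and 105 CPM (log2 3.47 ± 0.36, adjusted p = 0.000127, edgeR). Acp5, the tartrate-resistant acid phosphatase, was at 434, 286 and 303 CPM against 51.2, 46.8 and 70.2 CPM (log2 2.73 ± 0.37, adjusted p = 0.000566, edgeR), a call lost with shared barcodes left out (log2 1.79, adjusted p = 0.064). An unnamed cluster of 82 cells with Mmp9, Acp5, Ctsk and Ocstamp among its leading genes held 80 scaffold cells and 2 lung cells. Not every member differed: Cd9, a tetraspanin, was at 848, 1063 and 509 CPM in scaffold and 946, 640.1 and 1212 CPM in lung (log2 -0.15, adjusted p = 0.859, edgeR), and its sign turned without day 21 (0.38), with shared barcodes kept (0.18) and without the day 21 lung library alone (0.11). Atp6v0d2, a proton pump subunit that alveolar macrophages also express, was at 1043, 589 and 635 CPM against 334, 352 and 483 CPM and did not pass (log2 1.00 ± 0.35, adjusted p = 0.0921, edgeR), though it did without day 21 (log2 1.28, adjusted p = 0.000469) and without the day 21 lung library alone (log2 1.19, adjusted p = 0.0484).

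Of 25 matrix proteases and their inhibitors, 16 were higher and 3 lower in scaffold (18 and 5 without day 21, 7 and 2 with shared barcodes kept). Ctsl, a lysosomal cathepsin (chr13:64361890-64370772), was at 3580, 2626 and 2543 CPM against 59.1, 83.9 and 87.8 CPM (log2 5.34 ± 0.42, adjusted p = 3.21e-05, edgeR). Ctsb, another cathepsin, was at 4354, 6469 and 4681 CPM against 287, 374 and 606 CPM (log2 3.74 ± 0.40, adjusted p = 0.000137, edgeR). The membrane-bound collagenase Mmp14 was at 229, 167 and 259 CPM against 11.4, 10.6 and 17.6 CPM (log2 4.16 ± 0.41, adjusted p = 9.88e-05, edgeR). All 3 lay without overlap above lung. Timp1, an inhibitor of these enzymes, was at 8.18, 62.3 and 84.2 CPM against 0, 0 and 17.6 CPM, an overlap of the lowest scaffold with the highest lung library (log2 5.19 ± 0.90, adjusted p = 0.0025, edgeR), and the call was lost without day 14 (log2 3.10, adjusted p = 0.0514), with shared barcodes kept (log2 1.86, adjusted p = 0.574) and in DESeq2 (adjusted p = 0.0604). Ctss, the cathepsin of antigen processing, was at 8246, 8839 and 7498 CPM against 2879, 3061 and 5470 CPM and did not pass (log2 1.24 ± 0.37, adjusted p = 0.0518, edgeR); it passed without day 21 (log2 1.62, adjusted p = 3.64e-07) and without the day 21 lung library alone (log2 1.53, adjusted p = 0.0164).

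**Figure D2:**
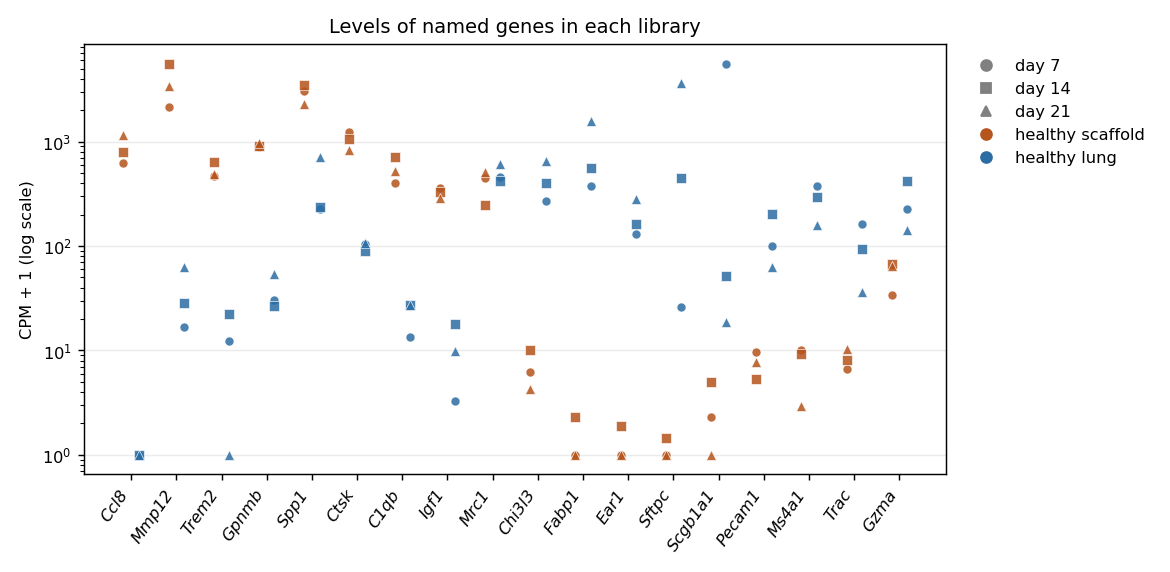
CPM + 1 (vertical axis, log scale) of 18 genes in each library; orange is scaffold, blue is lung, and the symbol gives the day, with a CPM of 0 drawn at 1. Ccl8 and the 7 genes from Mmp12 to Igf1 lie higher in every scaffold than in every lung library, Mrc1 overlaps, and the 9 genes from Chi3l3 to Gzma lie lower in every scaffold library.

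Chemokines, the secreted proteins that draw in leukocytes, had the highest median of the lists with 5 or more tested members: 12 of 19 were higher and 2 lower in scaffold (median log2 3.08, with 9 and 0 called when shared barcodes were kept). Ccl8, a ligand for monocytes and lymphocytes (chr11:82115185-82116799), was at 626, 792 and 1157 CPM in scaffold and had no UMI in lung, at least 630-fold higher (adjusted p = 3.21e-05, edgeR). With shared barcodes kept its log2 fold change was 4.26 and did not pass (adjusted p = 0.0524), as for Mmp12 (3.52, adjusted p = 0.0652). Ccl9, which acts on myeloid cells, was at 692, 1125 and 1060 CPM against 46.6, 95.4 and 79.0 CPM (log2 3.79 ± 0.36, adjusted p = 7.38e-05, edgeR). Pf4, platelet factor 4, which macrophages can also make, was at 305, 535 and 456 CPM against 14.8, 19.4 and 149 CPM (log2 3.72 ± 0.58, adjusted p = 0.00136, edgeR). Cxcl3, a ligand of the neutrophil receptor Cxcr2, was at 7.32, 76.3 and 29.9 CPM against 0, 1.77 and 0 CPM (log2 5.59 ± 0.75, adjusted p = 0.000537, edgeR). On the lung side stood Cxcl13, which guides B cells, at 0.861, 11.0 and 7.15 CPM in scaffold and 149, 15.0 and 931 CPM in lung (log2 -4.95 ± 1.17, adjusted p = 0.0157, edgeR), and Ccl5, made by T and NK cells, at 40.1, 75.5 and 63.1 CPM against 419.5, 721 and 176 CPM (log2 -2.72 ± 0.43, adjusted p = 0.00146, edgeR). Ccl6 was at 949, 1974 and 1220 CPM against 2297, 2288 and 2757 CPM and did not pass (adjusted p = 0.172, edgeR).

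Cytokines and their receptors were less one-sided, with 4 of 18 higher and 2 lower (6 and 5 of 19 without day 21, 3 and 1 with shared barcodes kept). Ccr7, the lymph node homing receptor among the chemokine receptors, was lower, at 1.29, 10.5 and 12.4 CPM against 127, 64.5 and 43.9 CPM (log2 -3.39 ± 0.69, adjusted p = 0.00673, edgeR; log2 -2.19, adjusted p = 0.052 without day 7). Ccr2, the receptor of inflammatory monocytes, was at 534, 429.5 and 713 CPM against 249, 389 and 255 CPM and did not pass (log2 0.95 ± 0.36, adjusted p = 0.118, edgeR), but passed with cells of 400 or more genes (log2 1.08, adjusted p = 0.0382). Igf1, a growth factor of repair macrophages, was at 362, 326 and 290.2 CPM against 2.27, 16.8 and 8.78 CPM (log2 5.32 ± 0.56, adjusted p = 0.000133, edgeR). Il1rn, the natural antagonist of interleukin 1, was at 433, 430.4 and 507 CPM against 61.4, 59.2 and 87.8 CPM (log2 2.82 ± 0.35, adjusted p = 0.000315, edgeR). Il1b itself overlapped, at 649.9, 119.8 and 1655 CPM against 1314, 649.8 and 571 CPM (log2 -0.66 ± 0.62, adjusted p = 0.581, edgeR); without day 21 it was called lower (log2 -1.63, adjusted p = 6.48e-06) and without day 14 its value was 0.28. Il18 was evenly low in scaffold, at 22.0, 21.5 and 21.1 CPM against 218, 265 and 263 CPM (log2 -3.45 ± 0.35, adjusted p = 0.000115, edgeR).

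The complement list had 7 of 14 members higher and 1 lower (4 and 0 with shared barcodes kept), led by the classical pathway starter and an anaphylatoxin receptor. C1qb was at 402, 703 and 521 CPM in scaffold and 12.5, 26.5 and 26.3 CPM in lung (log2 4.81 ± 0.40, adjusted p = 3.66e-05, edgeR), and C1qa and C1qc were called with log2 values of 4.20 and 4.33. C3ar1, the receptor for a fragment of C3, was at 478, 318 and 307 CPM against 5.69, 9.71 and 26.3 CPM (log2 5.29 ± 0.53, adjusted p = 9.88e-05, edgeR). In the alternative activation list, named for the macrophage state driven by interleukin 4, 8 of 19 were higher and 2 lower (median 1.03; 10 and 3 without day 21, 6 and 1 with shared barcodes kept). Its members did not move as a block. Msr1, a scavenger receptor, was at 696, 393 and 480.1 CPM against 44.3, 96.2 and 176 CPM (log2 2.56 ± 0.48, adjusted p = 0.00388, edgeR; log2 1.85, adjusted p = 0.0607 without day 7). Mrc1, the mannose receptor, overlapped at 448, 249 and 511 CPM against 462, 419 and 606 CPM (log2 -0.29 ± 0.32, adjusted p = 0.649, edgeR), with a sign that turned under both other treatments of shared barcodes (0.09 and 0.003). Chi3l3, a chitinase-like protein abundant in alveolar macrophages, was on the lung side, at 5.17, 9.21 and 3.25 CPM against 271, 402 and 649.7 CPM (log2 -6.12 ± 0.51, adjusted p = 3.66e-05, edgeR); it has a close copy, Chi3l4, with which reads could be confused.

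Matrix genes were higher in part: 9 of 27 were called higher and 4 lower (10 and 6 without day 21, 3 and 1 with shared barcodes kept). Fn1, fibronectin, was at 525, 466 and 978 CPM against 102, 48.6 and 79.0 CPM (log2 3.08 ± 0.38, adjusted p = 0.000326, edgeR). Col3a1, a fibrillar collagen of repair tissue, was at 134, 273 and 1104 CPM against 43.2, 75.9 and 35.1 CPM (log2 2.54 ± 0.52, adjusted p = 0.00725, edgeR). Fibroblast-like cells were 0.535%, 3.55% and 5.24% of scaffold cells at these days, and their part in the collagen values was not tested. Dcn, a small proteoglycan of fibroblasts, overlapped at 34.0, 274 and 469 CPM against 151, 215 and 132 CPM (log2 0.04 ± 0.62, adjusted p = 0.976, edgeR), and its sign turned under 4 other settings, library totals alone included. Npnt, nephronectin of alveolar basement membranes, had 0, 0.439 and 0.650 CPM against 6.82, 18.5 and 26.3 CPM (log2 -5.26 ± 0.81, adjusted p = 0.00124, edgeR).

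Of 22 glycolysis and hypoxia genes 13 were higher and 1 lower (median 1.56), with 17 and 1 without day 21 and 1 and 0 with shared barcodes kept. Tpi1, a glycolytic enzyme, was at 259, 254 and 229 CPM against 67.1, 59.2 and 17.6 CPM (log2 2.36 ± 0.39, adjusted p = 0.00197, edgeR), while Vegfa, the vascular growth factor in the same list, was lower at 13.8, 10.1 and 44.2 CPM against 70.5, 125 and 52.7 CPM (log2 -2.20 ± 0.55, adjusted p = 0.0206, edgeR), a call lost without day 7 (adjusted p = 0.0863) and without day 14 (log2 -1.42, adjusted p = 0.226). Of 15 genes of iron and haem handling 7 were higher and none lower, with 2 when shared barcodes were kept. Hmox1, which breaks down haem, was at 191, 206 and 185 CPM against 29.6, 24.7 and 96.6 CPM (log2 2.41 ± 0.45, adjusted p = 0.00415, edgeR), and Slc11a1, a metal pump of the phagosome, was at 207, 154 and 260 CPM against 36.4, 41.5 and 17.6 CPM (log2 2.54 ± 0.41, adjusted p = 0.00159, edgeR). Of 20 interferon response genes 9 were higher and 1 lower, with 2 and 0 when shared barcodes were kept. Oas1a, an antiviral sensor, was at 81.4, 50.5 and 69.9 CPM against 22.7, 7.06 and 8.78 CPM (log2 2.41 ± 0.44, adjusted p = 0.0033, edgeR). An unnamed cluster led by Cxcl10, Ifit2 and Rsad2 held 74 scaffold and 2 lung cells.

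Among the other genes with the highest folds was Akr1b8, an aldo-keto reductase, at 56.0, 78.1 and 42.3 CPM and without a UMI in lung (at least 40.4-fold higher, adjusted p = 0.000264, edgeR). Syngr1, a vesicle membrane protein, had 60.7, 69.3 and 48.1 CPM against 1 UMI in all lung libraries, a pooled ratio of 124 with a 95% counting interval of 22.1 to 4900. With shared barcodes kept its log2 fold change was 2.82 and did not pass (adjusted p = 0.106). Anpep, an aminopeptidase, was at 149, 123 and 157 CPM against 2.27, 2.65 and 0 CPM (log2 5.91 ± 0.55, adjusted p = 6.27e-05, edgeR). Folr2, a folate receptor of resident-type macrophages, was at 243, 129 and 167 CPM against 0, 8.83 and 0 CPM (log2 5.44 ± 0.75, adjusted p = 0.000616, edgeR). Ptn, pleiotrophin, was the least even, at 14.2, 219 and 82.6 CPM against 2.27, 2.65 and 0 CPM (log2 5.46 ± 0.75, adjusted p = 0.000653, edgeR), and it was among the leading genes of the epithelial-like cluster.

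On the lung side stood surfactant and airway genes. Sftpc, a surfactant protein of alveolar type 2 cells (chr14:70520941-70524081), was at 0, 0.439 and 0 CPM in scaffold and 25.01, 447 and 3626 CPM in lung, so it spread widely between the lung libraries too. The scaffold value rests on 1 UMI, and the pooled ratio was 3400-fold lower, with a 95% counting interval of 608 to 134000 (adjusted p = 2.67e-05, edgeR). Scgb1a1, the secretoglobin of club cells (chr19:9083642-9087956), varied in the other order, at 5547, 51.2 and 17.6 CPM in lung against 1.29, 3.95 and 0 CPM (log2 -7.96 ± 1.54, adjusted p = 0.00487, edgeR). Of 18 members of this list 7 were lower (5 with shared barcodes kept; median of the list -1.46) and 1 was higher: Lyz1, a lysozyme that macrophages share with airway glands, at 2425, 4524 and 2726 CPM against 116, 163 and 255 CPM (log2 4.30 ± 0.42, adjusted p = 8.44e-05, edgeR). Its near-identical copy Lyz2 makes the split of reads between the pair uncertain.

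Endothelial genes were lower in 12 of 18 cases and higher in none (median -3.07; 7 lower with shared barcodes kept). Car4, a carbonic anhydrase of lung capillaries (chr11:84957754-84966054), had no UMI in scaffold and 73.9, 183 and 202 CPM in lung, at least 355-fold lower (adjusted p = 3.66e-05, edgeR). Car4 was found in lung phagocyte-like cells as well (225, 241 and 78.9 CPM of their own UMIs). Pecam1, an adhesion protein of the vessel wall, was at 8.61, 4.39 and 6.83 CPM against 98.9, 203 and 61.5 CPM (log2 -4.04 ± 0.51, adjusted p = 0.000384, edgeR). Ptprb, a phosphatase of endothelium, was at 0.431, 0.878 and 1.63 CPM against 12.5, 83.0 and 114 CPM (log2 -5.93 ± 0.56, adjusted p = 6.97e-05, edgeR). Red cell genes went the same way in 4 of 5 cases. Hbb-bs, a beta globin, was at 1.29, 43.0 and 0.325 CPM in scaffold and 795, 1380 and 105 CPM in lung (log2 -6.65 ± 0.73, adjusted p = 0.000178, edgeR), with reads that near-identical globin copies can share.

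Of 21 alveolar macrophage genes 12 were lower and 4 higher (11 and 3 with shared barcodes kept). Fabp1, a fatty-acid carrier (chr6:71199879-71205034), was at 0, 1.32 and 0 CPM against 374, 561 and 1572 CPM, a pooled ratio of 1380-fold lower with a 95% counting interval of 470 to 6680 (adjusted p = 2.67e-05, edgeR). Ear1, a ribonuclease with close copies in the same family, was at 0, 0.878 and 0 CPM against 131, 161 and 281 CPM (adjusted p = 3.21e-05, edgeR). The 4 called higher were Lpl, Ctsk and Itgax, which the giant-cell list also holds, and the fatty-acid carrier Fabp4. Marco, a scavenger receptor often used to mark these cells, was near 0 in lung too (3.41, 0.883 and 0 CPM) and was not tested.

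Lymphocyte genes leaned to lung. In the B cell list 10 of 12 were lower (median -4.63; 5 with shared barcodes kept), in the T cell list 15 of 19 (median -3.15; 3 with shared barcodes kept), and none was higher in either. Ms4a1, the B cell surface protein CD20, was at 9.04, 8.34 and 1.95 CPM in scaffold and 373, 297 and 158 CPM in lung (log2 -5.43 ± 0.42, adjusted p = 3.21e-05, edgeR). Cd79a, part of the B cell receptor, was at 8.18, 8.78 and 6.18 CPM against 387, 289 and 79.0 CPM (log2 -4.80 ± 0.47, adjusted p = 8.44e-05, edgeR). Lef1, a factor of naive T cells, was at 6.03, 6.14 and 6.50 CPM against 176, 166 and 52.7 CPM (log2 -4.28 ± 0.48, adjusted p = 0.000186, edgeR). Il7r, a receptor in the T cell list, did not follow: 252, 197 and 244 CPM against 154, 151 and 70.2 CPM (log2 0.92 ± 0.36, adjusted p = 0.137, edgeR), which passed with cells of 400 or more genes (log2 1.11, adjusted p = 0.0352). In the NK and cytotoxic list 6 of 13 were lower, 13 of 13 without day 21 and 0 with shared barcodes kept. Over all genes 588 of 9657 were lower, 1393 of 9863 without day 21 and 197 of 9622 with shared barcodes kept. Gzma, a granzyme, was at 32.7, 65.8 and 64.0 CPM against 225, 419 and 141 CPM (log2 -2.21 ± 0.41, adjusted p = 0.00366, edgeR; log2 -1.87, adjusted p = 0.0598 without day 7), while the NK cell-like share did not pass.

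Myeloid lists other than macrophages were mixed. Of 15 monocyte genes 3 were higher and 8 lower, with 1 and 2 when shared barcodes were kept. Of 16 neutrophil genes 4 were higher and 2 lower, with 4 and 8 of 18 without day 21. Retnlg, of mature neutrophils, was at 19.0, 15.8 and 70.2 CPM against 207, 226 and 87.8 CPM (log2 -2.66 ± 0.60, adjusted p = 0.0121, edgeR; adjusted p = 0.0557 without day 7). Irg1, the itaconate-making enzyme of activated myeloid cells, was at 137, 29.8 and 273 CPM against 7.96, 9.71 and 0 CPM (log2 3.40 ± 0.63, adjusted p = 0.00395, edgeR). S100a8, an alarmin of neutrophils, was at 667, 358 and 1415 CPM against 1888, 2177 and 641 CPM and did not pass (adjusted p = 0.34, edgeR), but it was called lower without day 21 (log2 -1.96, adjusted p = 1.24e-08). Dendritic cell genes (0 of 13 higher, 2 lower), basophil and mast cell genes (0 of 5, 2), plasma cell genes (1 of 6, 2), eosinophil genes (0 of 2, 2) and fibroblast genes (5 of 17, 1) complete the cell lists, with Pf4 the only tested platelet gene. With shared barcodes kept, no dendritic cell, basophil or mast cell gene was called, and 2 fibroblast genes were higher and none lower. Of 17 cell cycle genes 1 was lower, and of 18 genes that respond to tissue dissociation 3 were lower and none higher. In the class II antigen presentation list none of 13 was higher and 2, H2-Oa and H2-Ob of B cells, were lower, with none lower when shared barcodes were kept. Both calls were lost without day 7 (adjusted p = 0.159 and 0.156), and that of H2-Ob also without day 14 (0.0553) and in the fit of all 18 libraries (0.148).

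**Figure D3:**
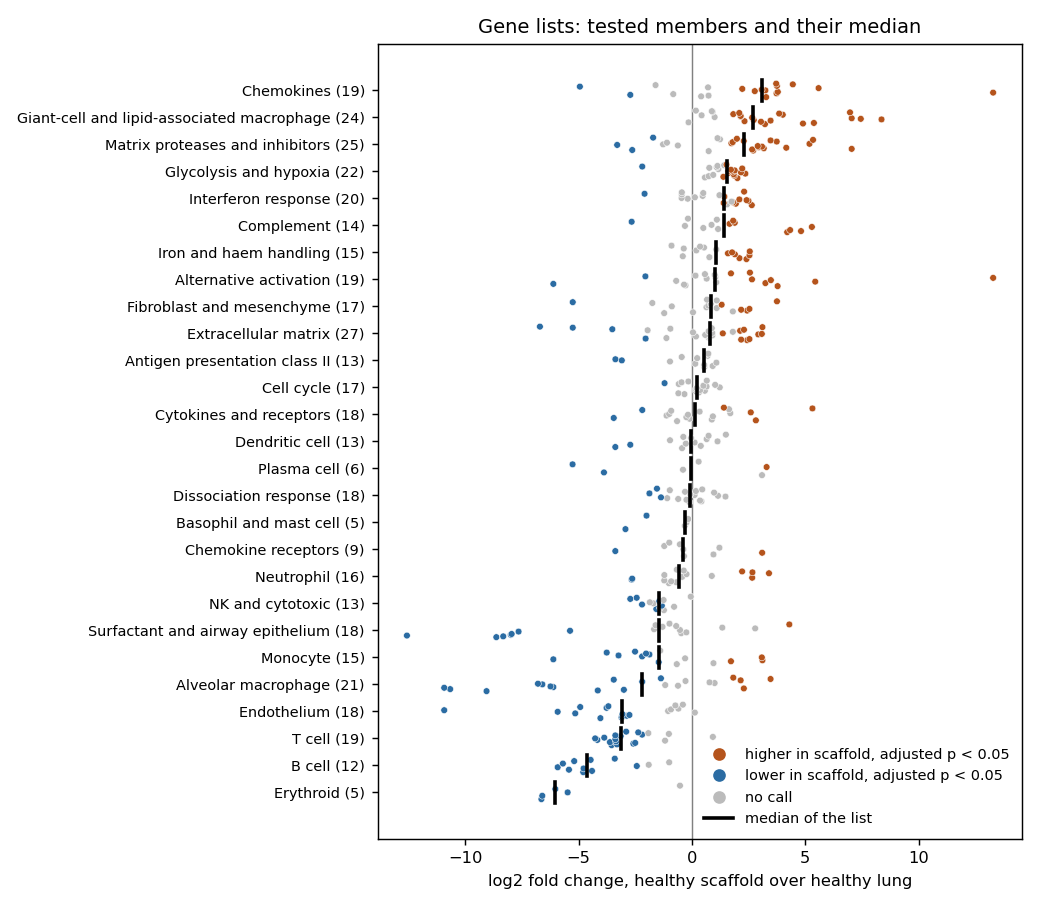
Log2 fold change of healthy scaffold over healthy lung (horizontal axis) for the tested members of 27 lists with 5 or more tested members; dots are genes, orange or blue where the adjusted p passed 0.05, and black bars are list medians. Chemokine, giant-cell and protease genes lie to the right and lymphocyte, endothelial and red cell genes to the left; dots of genes without a UMI in one tissue have a fitted value that depends on the prior count.

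The same test was run on UMIs summed over phagocyte-like cells alone, mononuclear and alveolar together. All clusters without a name were left out, among them the cluster led by Serpinb10 and Plac8. Also left out were those with Mmp9 and Acp5 (80 scaffold and 2 lung cells), Cxcl10 and Ifit2 (74 and 2) and Lyve1 and Cd163 (43 and 1) among their leading genes. Whether their cells are phagocytes was not tested. In scaffold the phagocyte-like cells came mostly from 4 clusters, led by Cxcl3 and Vcan, by Prdx1 and Mmp12, by Ccl8 and C1qa, and by Gpnmb and Ctsl. In lung they came mostly from the alveolar macrophage-like cluster of 348 cells, led by Fabp1 and Ear1. Of 7414 genes tested, 1079 (14.6%) passed, 662 (8.93%) higher and 417 (5.62%) lower in scaffold, and 520 passed without day 7. Genes that lead a phagocyte cluster, such as Ccl8, Mmp12, Gpnmb, Apoe, Fabp1 and Ear1, differ between these cells by construction of the clusters, and the markers that named the classes, such as Csf1r, Mrc1, Arg1 and Krt79, were part of the choice of cells; neither are given as results. Clustering used all variable genes, so the tests below are not independent of how the class was made. They were not run with shared barcodes kept.

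Class II genes, which show peptides to helper T cells, were higher in scaffold phagocytes, unlike in whole libraries: 7 of 10 tested were called higher and none lower (median log2 2.46 against 0.09 over all genes). H2-Aa was at 676, 1496 and 1571 CPM of phagocyte UMIs in scaffold and at 121, 163 and 98.6 CPM in lung (log2 3.20 ± 0.34, adjusted p = 4.5e-08, edgeR). Cd74, the chaperone of these molecules, was at 1935, 6517 and 4822 CPM against 426, 790.1 and 1065 CPM (log2 2.60 ± 0.30, adjusted p = 1.71e-07, edgeR). Over whole libraries H2-Aa and Cd74 had not passed (log2 0.54 and 0.23, adjusted p = 0.422 and 0.762, and -0.09 for Cd74 without day 14). Dendritic cell-like cells, which express the same genes, were 4.69%, 10.8% and 6.33% of scaffold cells and 1.02%, 1.5% and 5.11% of lung cells, and doublets with them were not removed; their part in these values was not tested.

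Interferon genes were higher in 12 of 17 cases and lower in none among phagocytes, and glycolysis genes in 15 of 21 and none. Irf7, a factor of the interferon response, had 66.8, 40.0 and 52.8 CPM against no UMI in lung phagocytes, at least 10.9-fold higher (adjusted p = 4.09e-05, edgeR). Mmp14 was at 200.3, 165 and 259.8 CPM against 0, 0 and 19.7 CPM, where lung had 1 UMI, a pooled ratio of 132 with a 95% counting interval of 23.6 to 5210. Igf1 was at 506, 388 and 374 CPM against 4.02, 3.14 and 19.7 CPM on 3 lung UMIs, a ratio of 86.2 with an interval of 29.4 to 418. Trem2 was at 593, 779 and 659 CPM against 28.1, 53.3 and 0 CPM (log2 4.39 ± 0.41, adjusted p = 4.63e-09, edgeR). Il7r was at 323, 241 and 295 CPM against 0, 12.5 and 19.7 CPM (log2 5.16 ± 0.54, adjusted p = 4.28e-08, edgeR). In lung phagocytes of day 21, 1 UMI stood for 19.7 CPM. The Il7r value there is thus 1 UMI, and other low values of that library, that of H2-Aa included, rest on few UMIs.

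Among the genes with the largest folds in scaffold phagocytes that lead no cluster and marked no phagocyte class, 4 had no UMI in lung phagocytes. Adam8, a membrane protease, was at least 32.7-fold higher, Igf2r, a sorting receptor, at least 21.4-fold, Dhrs9, a retinol dehydrogenase, at least 20.5-fold and Kcnn4, a potassium channel, at least 16.8-fold. Lower in scaffold were Prg4, lubricin, at 0, 0 and 0.978 CPM against 237, 267 and 1105 CPM (log2 -10.02 ± 0.54, adjusted p = 1.09e-13, edgeR), and the junction protein gene Perp (at least 118-fold lower) and Nrn1 (at least 126-fold lower), each without a UMI in scaffold phagocytes. Pparg, the factor that directs alveolar macrophage identity, was at 33.4, 22.5 and 24.95 CPM against 137, 144 and 118 CPM (log2 -2.22 ± 0.37, adjusted p = 5.26e-05, edgeR). Ccl6 was lower too, at 1184, 2308 and 1451 CPM against 6679, 6377 and 5287 CPM (log2 -1.82 ± 0.29, adjusted p = 2.57e-05, edgeR; adjusted p = 0.0545 without day 7).

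**Figure D4:**
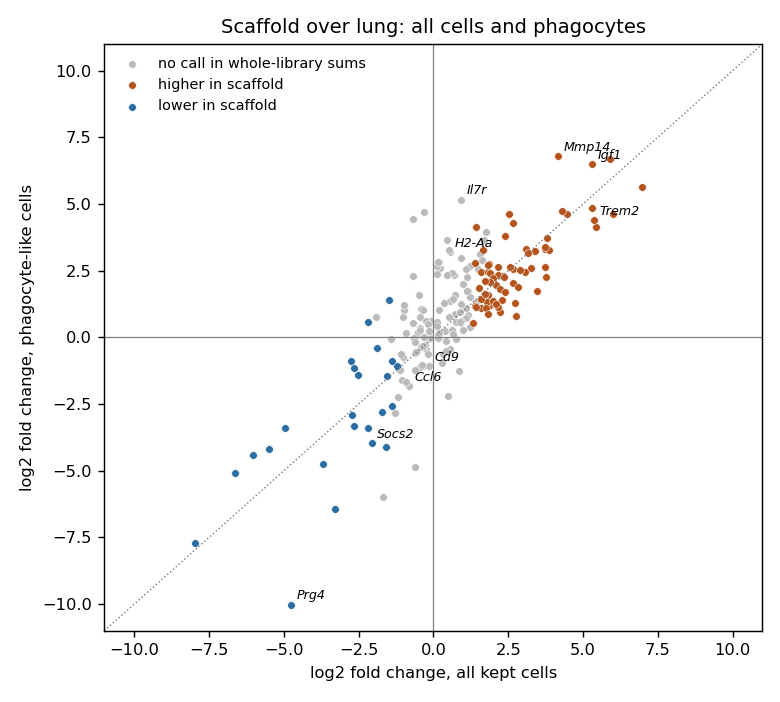
Log2 fold change of scaffold over lung in all kept cells (horizontal axis) and in phagocyte-like cells (vertical axis) for 201 genes of the lists and rules that have UMIs in both tissues, lead no phagocyte cluster and marked no phagocyte class; dots are genes, coloured by their call in all cells, and the dotted line marks equal values. H2-Aa and Il7r lie below 1 on the horizontal axis and above 3 on the vertical one, and Ccl6 lies below 0 on both.

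The last comparison asked whether the difference between scaffold and lung was another one in mice with a 4T1 tumour. The 6 tumour-bearing libraries are other libraries than the healthy ones, but same-day libraries of both groups had barcodes in common. At days 7, 14 and 21, 56, 22 and 243 barcodes were present in all libraries of the day, those of spleen included. The tumour-bearing comparison was run only with shared barcodes assigned or dropped as above. There, 2370 of 9885 genes tested (24.0%) passed between scaffold and lung. Of the 1145 healthy calls 970 were tested there, 898 had the same sign, 565 were called in the same direction and 5 in the other; 565 genes are 58.2% of the healthy calls tested there and 23.8% of the tumour-bearing calls. Mmp12 had a log2 fold change of 8.39 in tumour-bearing mice, Ccl8 of 7.97, Trem2 of 5.34 and Ms4a1 of -4.89. Of the giant-cell and lipid-associated list 18 of 23 were higher and 1 lower there.

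A direct test of the change, the interaction of tissue and tumour, called 0 of 10848 genes in edgeR, while 1354 had an unadjusted p under 0.05 and the smallest adjusted p was 0.0703; no other tool was run on it. Library totals in place of TMM factors moved the median of all genes from -0.08 to -0.49 and also called none. Without day 21 it called 64 genes, 63 of them with a larger scaffold-over-lung value in healthy mice, and without day 14 it called 2. Among the 64, picked after their values were seen, were Mmp9, a gelatinase (log2 4.01 ± 0.58, adjusted p = 0.0082), and the neutrophil granule genes Lcn2 (2.84 ± 0.51, adjusted p = 0.0254) and Ltf (3.24 ± 0.58, adjusted p = 0.0251). In the neutrophil list none of 20 genes was higher and 17 were lower in tumour-bearing scaffold against lung, against 11.3% and 12.7% of all genes; the healthy comparison had 4 higher and 2 lower of 16, and 4 and 8 of 18 without day 21; no single interaction passed with all days.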

How the data were processed

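Drop-seq UMI counts per gene and cell barcode were deposited by the authors as 1 table per library, with integers that are not normalized. Per the submitters' processing notes the build was mm10 and Seurat version 2 was used; the aligner is not given in the sources used here. Barcodes with at least 200 genes and under 20% mitochondrial UMIs were kept. A barcode present in several libraries of a day went to the library with 5-fold or more UMIs than the next, or was left out. Doublets were not removed, because Scrublet marked 21 of 5552 cells (0.378%), too few to have worked. Cells of the 6 libraries were clustered with scanpy 1.11.5 and igraph 0.11.9 in Python 3.11.15 (2000 variable genes, 30 principal components, 15 neighbours). A cluster was named where 3 or more markers of a class were raised 1.5-fold and at least 1 was among its 10 leading genes. Where several classes had enough raised markers, the class with most markers among the leading genes was taken.

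UMIs were summed per library and tested with edgeR 4.0.16 in R 4.3.3 (quasi-likelihood test, TMM factors, filterByExpr, day as a block, Benjamini-Hochberg adjustment), with DESeq2 1.42.0 as an alternative. The main fit had 2 residual degrees of freedom and a biological coefficient of variation of 0.3049. Deviations of same-day libraries correlated at 0.183, 0.00474 and -0.11, so day is a block by design and not by the data. A fold against a tissue without a UMI was computed against 3 counts over its libraries. Ratio intervals (95%) are Poisson intervals and, like upper limits on shares, cover counting error only. On simulated data for 9296 genes of the whole-library comparison, 56 of 100 genes changed by 1.5 on the log2 scale were recovered. Of those changed by 3, 100 of 100 were recovered, with 1 false call. For 7034 genes of the phagocyte comparison it was 67 and 100, with 10 false calls. Changed genes were drawn at or above the median count, with the same dispersion for all genes. No day effect or shared barcode was simulated, so these numbers do not cover scarce genes or such effects.

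The compared libraries, the 29 gene lists and the markers were chosen with earlier results of these data known. Of 506 symbols in them 493 were found as written, 10 under an older symbol and 3 not at all. Named genes were the 12 highest and 12 lowest called genes with the same sign at 3 days and a mean of 50 CPM or more, 3 called and 3 abundant genes per list, and the 8 highest and lowest within phagocytes; 8 genes over whole libraries and 15 within phagocytes, such as Spp1, Trem2 and H2-Aa, were added after their values were seen. Gene coordinates are of GRCm38 and, like the start-site windows, from RefSeq.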

Additional observations from a re-analysis of the deposited data

Results flagged for a closer look

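Mrc1, the mannose receptor of macrophages, is given because its 3 healthy days had one sign and its 3 tumour-bearing days the other; no healthy difference passed a test. In healthy libraries it was at 448, 249 and 511 CPM in scaffold and 462, 419 and 606 CPM in lung, lower in scaffold at 3 of 3 days (log2 -0.29 ± 0.32, adjusted p = 0.649, edgeR). The ranges of the tissues overlapped, and the healthy value was 0.092 with shared barcodes kept and 0.003 with them left out. In tumour-bearing libraries it was at 517, 394 and 453.5 CPM in scaffold and 255, 41.9 and 22.7 CPM in lung, higher in scaffold at 3 of 3 days (log2 2.55 ± 0.58, adjusted p = 0.0225, edgeR). The healthy minus the tumour-bearing difference was -2.80 ± 0.63 on the log2 scale and did not pass the test of the difference itself (adjusted p = 0.125, edgeR).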

How the results depend on the processing

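Of 1145 genes called over whole libraries, the number was 366 with shared barcodes kept, 590 with them left out, 1702 with no filter on low counts and between 559 and 2557 with 1 day left out. Without the replicate block it was 1269, and library totals, DESeq2, cells with 400 or more genes, no mitochondrial limit and fits on more libraries gave between 1054 and 1350. The fit without the day 21 lung library, added after seeing the data, called 1457. Within phagocytes 1079 calls became 520 to 1116 with 1 day left out and 1077 without the replicate block. The interaction with a tumour called 0 to 64 genes with 1 day left out. Of 10 cell classes 3 were called. The number was 1 of 9 with shared barcodes kept, where no cluster was named dendritic cell-like, and 0 with cells of 400 or more genes. It was 0 to 2 with 1 day left out, 4 without the replicate block and 3 with barcodes alike in 11 bases merged. Of 147 named genes 116 were called. The call was lost for 45 with shared barcodes kept and for 20 with them left out. It was lost for 28 without day 7, 18 without day 14 and none without day 21. Genes not tested in a setting are not counted as lost, and 109 of the called genes had a value with shared barcodes kept. Among genes whose value changed sign, none was called in the main fit. Dcn was -0.03 with library totals and -0.16 with cells of 400 or more genes. Hdc was 0.18 without the replicate block, 0.20 and 0.33 with shared barcodes kept or left out and 0.016 without the day 21 lung library. Mrc1 was 0.092 with shared barcodes kept and 0.003 with them left out, where Fos was 0.033. Cd9 was 0.18 with shared barcodes kept and 0.11 without the day 21 lung library. NK cell-like numbers gave 0.34 with shared barcodes kept, neutrophil-like numbers -0.89 with cells of 400 or more genes, and epithelial-like numbers, which were called with all cells, -1.62 at resolution 2 and -0.72 with cells of 400 or more genes. With 1 day left out the ranges were, in log2, -0.086 to 0.60 for Cd74, -0.73 to 1.12 for Dcn, -0.46 to 0.10 for Fos, -0.038 to 1.85 for Gsn, -1.01 to 0.17 for H2afz, -0.83 to 0.58 for Hdc, -1.62 to 0.28 for Il1b, -0.042 to 0.45 for Irf8, -0.020 to 0.66 for Jun, -0.95 to 0.36 for Junb, -1.92 to 0.56 for S100a9, -0.39 to 0.041 for Tubb5, -0.64 to 0.38 for Cd9, -1.14 to 1.98 for Neutrophil-like numbers and -0.66 to 0.38 for NK cell-like numbers. Il1b, Junb and S100a9 were called lower without day 21 (adjusted p = 6.48e-06, 0.0105 and 3.11e-08, edgeR). The cause of the changes between settings was not tested. Depth limits the day 21 lung library most. The comparison within T cell-like cells was not run, because 2 libraries had under 20 such cells, 14 and 17.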
